A study of Danio rerio with 4 samples.

Results

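In the pronephric duct of zebrafish embryos, 3574 windows of 1000 bp had a bright ATAC-seq signal and yet touched no deposited peak. They are bright windows outside all peaks. To find them, chromosomes 1 to 25 were cut into 1345090 windows, each coverage track was divided by its own mean over these chromosomes, and windows with a mean scaled signal of 3 or more over the 4 libraries were kept. A scaled signal of 1 is the genome mean of a library. Windows that overlapped a peak of either deposited list were left out, as were the first and last 1 Mb of every chromosome and chromosome 4 beyond 30 Mb. Of 7306 windows at the level of 3 or more, 3574 passed, 2664 touched a peak within the same limits of position, and 561 outside and 507 at peaks were left out by position.

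The study compared 2 libraries from embryos injected with an actl6a morpholino, genotype actl6a knockdown in the labels, with 2 from embryos injected with a standard control morpholino, genotype WT. All embryos carried the transgene Na, K-ATPase alpha1A4:GFP, which marks pronephric epithelia strongly. Both morpholinos were given at the 1-cell stage, and ducts were taken at 30 hours post fertilization. Each sample came from 15 pooled embryos, whose duct fragments were picked by GFP and dissociated into 10000 to 20000 viable cells, so the cells were chosen by eye and not sorted. A morpholino leaves the gene in place, and the tracks hold no measure of how far Actl6a protein fell. The labelled tissue could not be checked against marker genes here, because genes were not assigned to coordinates.

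ATAC-seq uses a transposase that cuts and tags open DNA, so regulatory elements appear as narrow rises over their surroundings, and peak callers look for such rises. Actl6a is a subunit of SWI/SNF complexes, which slide or evict nucleosomes at promoters and enhancers. The pronephric duct is the kidney tubule of the embryo, a ciliated and transporting epithelium. High coverage without a called peak is a known feature of sequencing tracks, and regions of very high coverage are often masked before peaks are compared. Genes, repeats and sequence of these windows were not analysed here.

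The depth inferred from the steps between low values was 148 and 165 M reads in the actl6a libraries and 117 and 136 M in the control libraries, where 1 M is 1000000 reads. Mitochondrial DNA took 0.776% and 0.565% of the actl6a signal and 1.22% and 0.625% of the control signal. The median member held 602 and 661 inferred reads in the actl6a libraries and 485 and 561 in the control libraries, and the lowest value of any member in any library was 59.4 reads. Control replicate 2 stood apart in 7 members, described further on. The difference in share of signal and the counts of the main fit are given with and without them. Counts under other settings include them. Nothing in the labels says that libraries of a group came from separate clutches, so p-values measure only the spread between these samples, which may be technical.

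The members covered 3.57 Mb, or 0.266% of the named chromosomes. Their share of the signal was 3.89% and 3.97% in the actl6a libraries and 4.08% and 4.12% in the control libraries. Union peaks were both deposited lists merged, without the limits of position set for members. They held 4.06% and 3.61% in the actl6a libraries and 5.03% and 4.48% in the control libraries. The members held more than these peaks in actl6a replicate 2 and less in the other libraries. Both actl6a libraries thus lay below both control libraries for both sets of regions. For the members the group means were 3.93% ± 0.0600 in actl6a and 4.10% ± 0.0234 in control libraries (SD, n = 2 each), a difference of -0.170 percentage points with p = 0.3333 in a two-sided exact permutation test, the smallest value that 2 libraries against 2 can give, and 0.417 adjusted over the 10 tests of values per library. In tissue pooled like this, fewer cells of a type with open chromatin there and less open chromatin per cell cannot be told apart. Both actl6a libraries were also deeper than both control libraries, and the part of depth in this difference was not tested. Without the 7 windows bright in 1 library the difference was -0.163 points.

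Levels ran over more than 2 orders of magnitude, and most of the signal sat in few windows. The quartiles of the level, the mean scaled signal over the 4 libraries, were 3.69 and 11.7 around a median of 5.69. Of the members, 1594 lay from 3 to 5, 922 from 5 to 10, 681 from 10 to 30, 309 from 30 to 100 and 68 at 100 or more. Those 68 windows alone carried 1.04% of the signal of the named chromosomes, and the 1594 windows from 3 to 5 carried 0.441%. By comparison, the 2664 bright windows at peaks had a median level of 3.69 with quartiles of 3.28 and 4.58. Only 7.32% of these (195) reached a level of 10, against 29.6% of the members (1058). These levels chose the members and are given as a description.

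**Figure D1:**
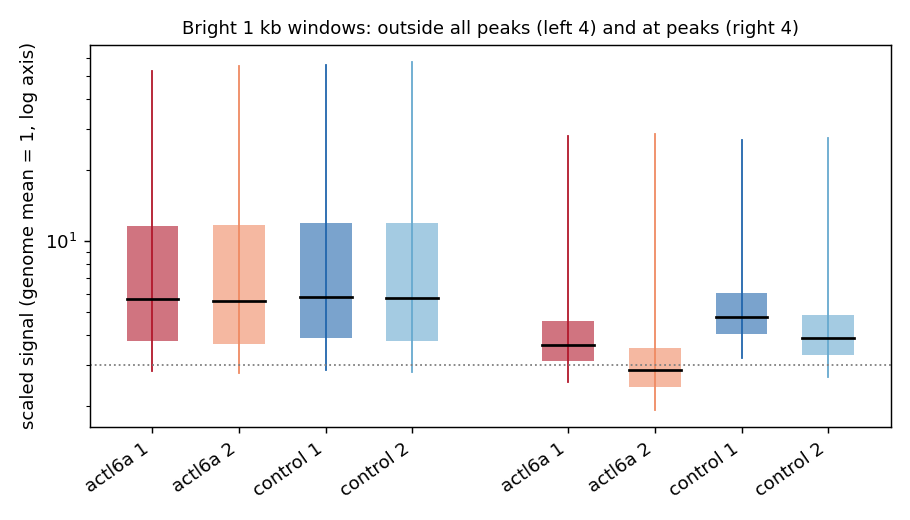
Scaled signal (genome mean of 1, log axis) of the 3574 bright windows outside all peaks (left) and the 2664 bright windows at peaks (right) in each library. Boxes span the quartiles, black lines are medians and thin lines run from the 5th to the 95th percentile; the dotted line is the level of 3. Outside peaks the 4 medians lie between 5.58 and 5.79, and at peaks between 2.84 and 4.79.

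The threshold passed through a continuous range. The 3 members just inside it, on chromosomes 22, 21 and 5, had levels of 3.0005, 3.0006 and 3.0012. The 3 windows just outside it, on chromosomes 8, 7 and 16, had 2.9998, 2.9992 and 2.9989. A member just inside, on chromosome 21 at 18523001 to 18524000 (all coordinates GRCz11, counted from 1), had 3.37 and 2.09 in the actl6a libraries and 3.34 and 3.20 in the control libraries, so 1 library lay well under 3 and the other 3 above it. When the level was taken over 3 libraries, leaving out each in turn, between 3558 and 3649 windows qualified, and between 3429 and 3480 of these were among the 3574. In 2773 members (77.6%) every library was at 3 or more by itself, against 925 (34.7%) of the bright windows at peaks. This uses the level of the rule and is not matched for level. From 3 to 4 lay 1116 of the 3574 members and 1655 of the 2664 windows at peaks. These shares are therefore no measure of how well libraries repeat.

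The 5 brightest members lay in only 2 places. The brightest, on chromosome 24 at 12369001 to 12370000, had a scaled signal of 1401 and 1356 in the actl6a libraries and 1477 and 1419 in the control libraries. The next, on chromosome 11 at 15114001 to 15115000, had 1063 and 1044 in the actl6a libraries and 1124 and 1100 in the control libraries. In both windows the 2 actl6a libraries were slightly below the 2 control libraries, by a fold of 0.952 and 0.947, and neither was called by limma (adjusted p = 0.833 and 0.794).

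The next pair, on chromosome 24 at 12416001 to 12417000 and at 12379001 to 12380000, averaged 553 ± 7.05 and 463 ± 12.1 in actl6a libraries, against 564 ± 12.5 and 479 ± 2.47 in control libraries (SD, n = 2). The last of the 5, on chromosome 11 at 15112001 to 15113000, averaged 390.1 ± 5.82 in actl6a and 408 ± 6.27 in control libraries (SD, n = 2). All 5 thus had nearly the same height in every library, at 399 to 1413 times the genome mean.

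Members came in runs. Joining adjacent members gave 1378 runs, of which 853 were single windows and 525 held 2 or more, and these held 76.1% of all members (2721). Runs of 10 or more numbered 60 and held 1105 members. Single windows were dimmer, with a median level of 3.45 against 7.39 in runs of 2 or more. Windows of a run share fragments and are not independent.

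The longest run lay on chromosome 24 at 12445001 to 12545000, where 100 windows in a row were members, each between 3.89 and 49.7 times the genome mean. Its mean scaled signal was 12.0 and 11.6 in the actl6a libraries and 11.9 and 11.6 in the control libraries. No window of this run had an unadjusted p under 0.05 in limma. On chromosome 12 at 14393001 to 14443000 a run of 50 windows had means of 16.28 and 15.99 in actl6a libraries and 17.02 and 16.26 in control libraries. On chromosome 16 at 18222001 to 18270000 a run of 48 had 15.8 and 15.7 in actl6a libraries and 16.5 and 15.6 in control libraries. In all 3 runs the groups overlapped.

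The next 2 runs by length were brighter. A run of 47 windows on chromosome 17 at 46474001 to 46521000 had means of 24.4 and 26.6 in actl6a libraries and 26.002 and 28.0 in control libraries, and the groups overlapped. A run of 33 windows on chromosome 10 at 12094001 to 12127000 had 26.5 and 26.5 in actl6a libraries and 27.3 and 27.6 in control libraries, and here both actl6a libraries were lower. The median log2 change, actl6a over control, was between -0.086 and 0.00026 over the windows of each of these 5 runs.

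The members were spread unevenly along the genome. They fell in 506 of the 1263 steps of 1 Mb that held an eligible window, that is, one outside all peaks within the limits of position. The 10 densest steps held 32.9% of them (1177). Chromosome 8 had the most, 397, or 7.87 per 1000 eligible windows, and chromosome 9 the fewest per window, 62 or 1.18 per 1000. On chromosome 8 the step from 34 to 35 Mb alone held 261 members in 55 runs, with levels of 3.02 to 104 and a median of 6.21. The median log2 change, actl6a over control, of these 261 was 0.052. The next densest were chromosome 24 from 12 to 13 Mb with 162, chromosome 25 from 26 to 27 Mb with 135, chromosome 16 from 36 to 37 Mb with 123 and chromosome 12 from 14 to 15 Mb with 108.

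When each chromosome was divided into 5 equal parts, 33.1% of the members lay in the second part and 30.5% in the fourth, where 21.5% and 20.4% of eligible windows lie. The remaining parts, from start to end, held 9.51%, 12.5% and 14.4% of the members and 19.5%, 20.2% and 18.4% of eligible windows. Over all members, the median distance to peaks was somewhat below that of eligible windows. The median member was 15.3 kb from the nearest peak, against 17.6 kb for all eligible windows. Brighter members lay closer to peaks. The median distance was 20779.5 bp at level 3 to 5, 17323.5 bp at 5 to 10 and 13130 bp at 10 to 30. It was 3047 bp at 30 to 100 and 2109.5 bp at 100 or more. A peak lay within 1000 bp of 315 members, at 1000 to 10000 bp from 1143 and farther than that from 2116.

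**Figure D2:**
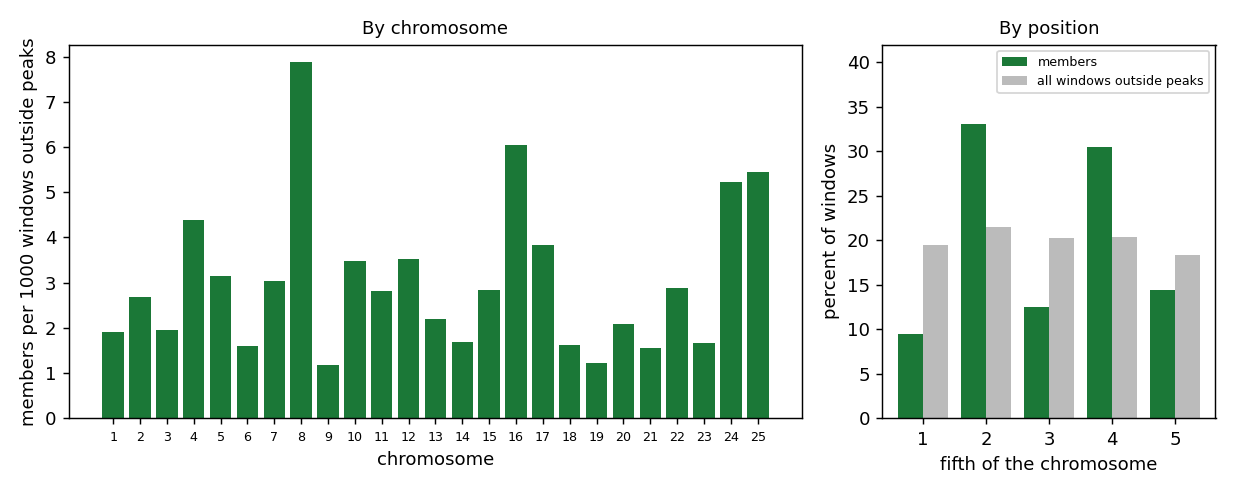
Left, members per 1000 eligible windows (outside all peaks, within the limits of position) on each of the 25 chromosomes, from 1.18 on chromosome 9 to 7.87 on chromosome 8. Right, percent of the members (green) and of all eligible windows (grey) in each of 5 equal parts of chromosome length; parts 2 and 4 hold 33.1% and 30.5% of the members. A few dense steps of 1 Mb weigh on parts 2 and 4.

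Bright stretches extended beyond the windows. The contrast of a window, the log2 ratio of its signal to that 1000 to 5000 bp away on both sides, had a median over members of 0.48 and 0.47 in the actl6a libraries and 0.47 and 0.48 in the control libraries. Over bright windows at peaks it was 1.35 and 1.04 in the actl6a libraries and 1.67 and 1.42 in the control libraries. The members' contrast was lower in 4 of 4 libraries, by 0.89 ± 0.26 (SD, n = 4). Peak callers pick rises over the surroundings and the rule left peaks out, so this difference follows in part from the rule and is given as a description. An exact sign-flip test of it counts among the 10 tests of values per library, but its outcome is not used, for the same reason. The flanks themselves held a median scaled signal of 4.55 ± 0.0791 for members and 1.10 ± 0.0170 for bright windows at peaks (SD, n = 4 libraries). A window at peaks thus stood over a background near the genome mean, and a member usually stood over flanks that were bright as well. This differed between members. Averaged over libraries, the median contrast was 0.965 in single windows, 0.266 in runs of 2 or more and 0.00394 in runs of 10 or more. Stretches of 500 bp or more without coverage in any library were as rare within 5 kb of members, at 25 (0.699%), as of bright windows at peaks, at 20 (0.751%).

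The shape inside the windows varied. Peakedness, the highest 50 bp bin over the window mean, was 2 or more in 1691 members (47.3%), called peaked, and under 2 in 1883, called flat. Peaked members were brighter, with a median level of 7.59 against 4.56 for flat ones, and the width of the bins that reached at least 0.5 of the highest bin had a median of 300 bp in peaked and 638 bp in flat members. The sharpest, on chromosome 15 at 11486001 to 11487000, had a peakedness of 13.7 and a scaled signal of 59.2 and 60.0 in the actl6a libraries and 63.3 and 59.2 in the control libraries. In it, the highest bin of 50 bp averaged 827 times the genome mean. The next, on chromosomes 16 at 31670001 to 31671000 and 18 at 13130001 to 13131000, had a peakedness of 12.6 and 11.5. The flattest members, on chromosomes 9, 2 and 8, had 1.193, 1.203 and 1.205.

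Averaged over libraries, the median peakedness was 1.98 ± 0.00359 for members and 2.12 ± 0.0696 for bright windows at peaks (SD, n = 4), lower in 4 of 4 libraries, again as a description. That order turned when only windows of level 5 or more were compared, where members were higher by 0.10. Knockdown and control libraries had almost the same shape: the median peakedness of members was 1.97 and 1.98 in actl6a libraries and 1.97 and 1.98 in control libraries. The difference of the group means was -0.0042 (p = 0.667, exact permutation), and that of the median contrast was -0.0035 (p = 0.667, exact permutation).

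The pattern of signal within a member repeated between libraries. The median Pearson correlation of the 20 bins of a window between 2 libraries was 0.940 between the actl6a libraries, 0.931 between the control libraries and, as a mean of 4 pairs, 0.932 between an actl6a and a control library. These are correlations across bins that share fragments and are given as a description. The correlation was higher in brighter windows, with a median of 0.759 for members of level 3 to 5 and 0.997 for those at 100 or more, where more reads lie behind each bin.

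Levels repeated closely as well. The median absolute log2 difference of a member between 2 libraries was 0.13 between the actl6a libraries, 0.14 between the control libraries and 0.15 between libraries of different groups. At bright windows at peaks these values were 0.32, 0.29 and 0.40. The most different pair at peaks was actl6a replicate 2 with control replicate 1, at 0.67, and the same pair differed by 0.15 at members. Actl6a replicate 2 was the lowest library in 71.7% of bright windows at peaks and in 26.3% of members. Control replicate 1 was the highest in 69.9% of bright windows at peaks and in 32.3% of the members.

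To ask which members changed in the knockdown, limma was fitted to log2(scaled signal + 0.5) of all 7306 windows at the level of 3 or more, with Benjamini-Hochberg adjustment over all of them. The rule kept windows out of both peak lists, and a window that became brighter in 1 group could have been called a peak there, so the rule used part of this contrast and can leave out windows with large differences. Of the members, 4 (0.112%) had an adjusted p under 0.05, 1 higher and 3 lower in actl6a libraries, against 0.438% of all windows tested, where 25 of the 32 calls lay in the windows left out by position. Of the bright windows at peaks, 3 (0.113%) were called. An unadjusted p under 0.05 was reached by 202 members (5.65%), 62 higher and 140 lower, against 15.6% of all windows tested (2.76% higher, 12.9% lower). Among the 2664 bright windows at peaks it was reached by 617 (23.2%), 25 higher and 592 lower. Both the direction and the order of these shares depended on the scaling. With scaling on windows at peaks, 617 members (17.3%) had an unadjusted p under 0.05, 603 higher and 14 lower, against 6.42% of windows at peaks and 14.5% of all windows tested. With quantile normalization it was 330 members (9.23%), 272 higher and 58 lower, and with cyclic loess 359 (10.04%), 290 higher and 69 lower, against 14.8% and 14.9% of windows at peaks. Of all windows tested it was 13.9% (512 higher, 503 lower) with quantile normalization and 14.5% (538 higher, 524 lower) with cyclic loess. With scaling on windows at peaks, 960 of all windows tested were higher and 97 lower.

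The median log2 change was -0.039 over members, -0.36 over bright windows at peaks and -0.13 over all windows tested. The sign for members depended on the scaling: the median was 0.36, 0.076 and 0.072 with scaling on windows at peaks, quantile normalization and cyclic loess. In 2942 members (82.3%) the absolute log2 change was under 0.25, against 878 (33.0%) of bright windows at peaks and 57.4% of all windows tested. These shares hold for tracks scaled to their genome mean. With scaling on windows at peaks, the median log2 change of 0.36 over members stood against 0.013 over windows at peaks. Most members then exceeded 0.25, and the shares were not counted for that scaling. The median standard error of a log2 change was 0.17 in members and 0.24 in bright windows at peaks. Both actl6a libraries lay above both control libraries in 502 members (14.05%) and below them in 967 (27.1%), against 11.1% and 37.7% of all windows tested. The control list is longer than the actl6a list, with 24109 against 15248 peaks, so windows at peaks were picked more often from control peaks. How far that choice sets their lower level in actl6a libraries was not tested.

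The gap between members and windows at peaks was found among windows of moderate level. From 3 to 4 the median log2 change was -0.035 in 1116 members and -0.36 in 1655 windows at peaks, from 4 to 5 it was -0.033 in 478 members and -0.45 in 488, and from 5 to 10 it was -0.034 in 922 members and -0.40 in 326. At 10 or more it was -0.047 in 1058 members and -0.052 in 195 windows at peaks. The difference of medians, members minus windows at peaks, was 0.32 over all and 0.14 at a level of 5 or more. As a value per library, the median log2 signal of members minus that of windows at peaks was 0.72 ± 0.21 in actl6a and 0.38 ± 0.18 in control libraries (SD, n = 2). The exact permutation test gave p = 0.3333, the smallest possible. The peak lists of the same groups chose both sets of windows, so this test cannot decide whether the sets respond differently. Without 1 library the difference of medians ran from 0.15, without actl6a replicate 2, to 0.49, without actl6a replicate 1, and it was 0.18 without control replicate 1.

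**Figure D3:**
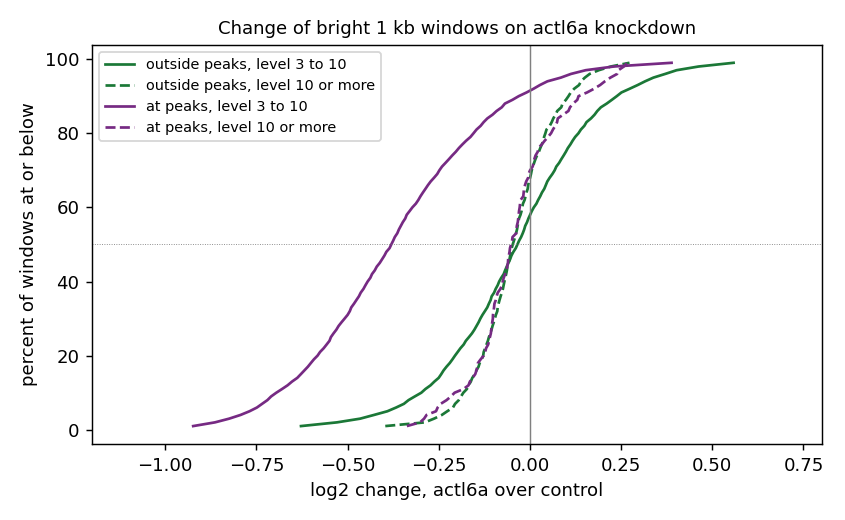
Cumulative percent of windows (vertical axis) by log2 change, actl6a over control (horizontal axis), for bright windows outside peaks (green) and at peaks (purple), split at a level of 10. At the dotted line of 50% the curves cross -0.034 (outside peaks, level 3 to 10), -0.047 (outside peaks, 10 or more), -0.38 (at peaks, level 3 to 10) and -0.052 (at peaks, 10 or more).

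The 4 called members lay in 3 stretches, on chromosomes 14, 20 and 2. On chromosome 14 at 20108001 to 20109000 the scaled signal was 49.7 and 54.5 in the actl6a libraries and 81.3 and 78.2 in the control libraries. It was 0.653-fold in actl6a, and limma gave a log2 change of -0.61 with an SE of 0.076 and an adjusted p of 0.00981. The second called window there, at 20096001 to 20097000, had 63.3 and 70.4 in the actl6a libraries and 93.6 and 90.8 in the control libraries, and the fit gave -0.46 on the log2 scale with an SE of 0.078 and an adjusted p in limma of 0.0470. In both windows the actl6a libraries lay below the control libraries. With scaling on windows at peaks the log2 changes of these 2 windows were -0.19 and -0.041, and neither was called (adjusted p = 0.76 and 0.96 in limma).

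Around these 2 windows, from 20091001 to 20113000, lay 21 members with levels of about 25 to 248 in single libraries. All 21 had a log2 change below 0, from -0.61 to -0.0093 with a median of -0.23, both actl6a libraries were below both control libraries in 17 of them, and 14 had an unadjusted p under 0.05. Their mean scaled signal was 87.1 and 95.3 in the actl6a libraries and 106 and 108 in the control libraries. Of all windows tested, 37.7% had both actl6a libraries below both control libraries, and 15.6% had an unadjusted p under 0.05. Neighbouring windows share fragments, so the counts in this stretch are not independent support for the calls. The bounds of this stretch and of the next 2 were set after the values had been seen. Within a fixed 20 kb of the window at 20108001, 20 of the other 22 members were below 0, with log2 changes of up to 0.25. Within the same distance of the window at 20096001 it was 20 of the other 24, with log2 changes of up to 0.43. The bright members of this stretch did not all differ alike: the last one, at 20112001, had 25.2 and 27.8 in the actl6a libraries and 25.9 and 27.4 in the control libraries.

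On chromosome 20 at 47105001 to 47106000 the scaled signal was 14.4 and 11.5 in the actl6a libraries and 5.76 and 6.34 in the control libraries. It was 2.14-fold in actl6a, or 1.03 on the log2 scale with an SE of 0.14, and limma's adjusted p of 0.0188 made it the only called increase among the members. Its neighbours on both sides were also members, with 7.14 and 6.32 in actl6a against 3.24 and 3.45 in control libraries on the left and 7.94 and 6.88 in actl6a against 4.12 and 5.81 in control libraries on the right. In all 3 windows both actl6a libraries were above both control libraries, as in 11.1% of all windows tested. Adjacent windows share fragments, so these 3 are not independent. The middle window stood over dimmer flanks, with a contrast of 2.33. Within 20 kb of it lay 6 other members, its neighbours among them, at levels of 3.04 to 6.19. In all 6 both actl6a libraries were above both control libraries.

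On chromosome 2 at 30214001 to 30215000 the scaled signal was 3.23 and 3.88 in the actl6a libraries and 8.65 and 8.72 in the control libraries. It was 0.409-fold in actl6a, or -1.18 on the log2 scale with an SE of 0.17, and limma gave an adjusted p of 0.0200. Within the next 16 kb lay 4 more members, and in all 5 both actl6a libraries were below both control libraries, with log2 changes from -1.26 to -0.83. Their mean was 2.62 and 3.19 in the actl6a libraries and 6.90 and 6.18 in the control libraries, a fold of 0.444 in actl6a. Of all windows tested, 37.7% had both actl6a libraries below both control libraries.

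These calls were at the edge of what the design resolves. With chromosome 4 left out of the fit, limma called 0 members, and adjusted p was 0.101 to 0.219 for these 4. An unadjusted p under 0.05 was then reached by 183 members (5.3%), against 13.6% of all windows tested. Limma also called 0 members without a variance trend, and in both settings it called 0 of all windows tested. Leaving out 1 library changed which members were called, and such a fit has 1 library in a group. The groups did not overlap in these 4 windows, so leaving out 1 library could not reverse the sign of their log2 changes. The log2 changes then ran from -0.68 to -0.55 and from -0.54 to -0.39 on chromosome 14. They ran from 0.87 to 1.19 on chromosome 20 and from -1.30 to -1.07 on chromosome 2. Scaling on the windows at peaks called 77 members (2.15%), 68 higher and 9 lower, against 3.04% of all windows tested. Among the 77 were the windows on chromosomes 20 and 2, at log2 changes of 1.43 and -0.80, and not those on chromosome 14. Quantile normalization called 20 members (0.56%, 12 of them higher), against 1.49% of all windows tested, and cyclic loess called 51 (1.43%, 34 of them higher), against 2.85%. The first of these scalings moved the median log2 change of all windows tested to 0.25, and the other 2 moved it to 0.00010 and -0.0011.

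**Figure D4:**
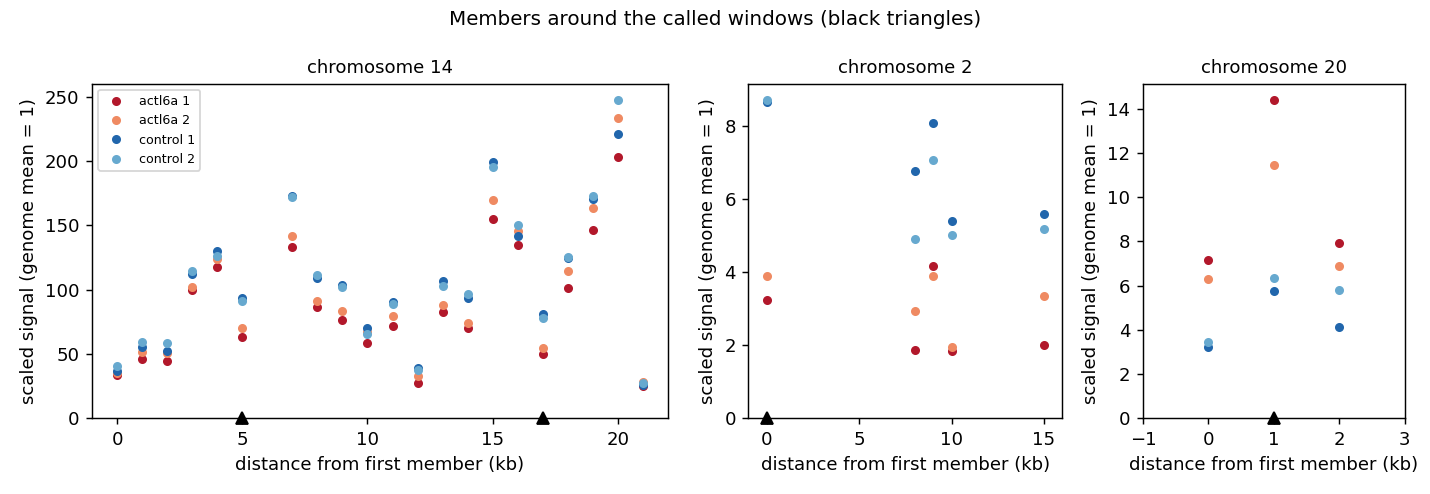
Scaled signal (genome mean of 1) of each member around the 4 called windows, by distance in kb from the first member of the stretch, in each library. Black triangles mark the called windows; on chromosomes 14 and 2 the actl6a libraries (red, orange) lie below the control libraries (blue) there, and on chromosome 20 above them.

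Among members whose groups did not overlap, the largest log2 changes upward were mostly not called. The largest, on chromosome 8 at 12910001 to 12911000, had 6.07 and 5.82 in the actl6a libraries and 1.499 and 2.55 in the control libraries. Its log2 change was 1.39, the SE 0.26 and limma's adjusted p 0.0647. The next, on chromosome 4 at 11795001 to 11796000, had 4.86 and 4.81 in actl6a libraries and 1.84 and 2.01 in control libraries, a log2 change of 1.14. Both were single windows within 1000 bp of a peak. A pair on chromosome 9, at 44150001 and 44155001, had log2 changes of 0.95 and 0.93, and the called window on chromosome 20 completes the 5 largest.

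Downward, and again among members whose groups did not overlap, the 3 largest changes were made by 1 library. On chromosome 16 at 47559001 to 47560000 the scaled signal was 1.04 and 0.660 in the actl6a libraries and 2.001 and 57.0 in the control libraries. Its log2 change was -3.16 with an SE of 1.07 and an adjusted p of 0.239 in limma, and -0.90 without control replicate 2. The windows on chromosome 23 at 23722001 and on chromosome 11 at 5591001 were of the same kind, and their log2 changes of -2.19 and -1.76 were -0.32 and -0.52 without that library. The remaining 2 were the window of chromosome 2 at 30224001, with 1.83 and 1.94 in actl6a against 5.39 and 5.02 in control libraries, and one on chromosome 3 at 5207001 to 5208000, with 1.77 and 1.49 in actl6a against 5.39 and 3.75 in control libraries. The adjusted p of these last 2 was 0.0610 and 0.102 in limma.

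In 7 members 1 library was at least 3 times every other library, and in all 7 that library was control replicate 2. They lay on chromosomes 16 (2 windows), 13, 23, 11, 2 and 20, between 2.69 and 76.5 kb from the nearest peak. In control replicate 2 their scaled signal ran from 9.58 to 57.0, while the other 3 libraries were between 0.560 and 2.001, close to the genome mean. In the second brightest, on chromosome 13 at 24829001 to 24830000, the actl6a libraries had 1.56 and 1.25 and the control libraries 1.38 and 39.4.

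The extra signal in control replicate 2 was narrow and steep in 5 of the 7 windows, where it kept at least 0.5 of its height over only 150 bp. On chromosome 2 it did so over 300 bp, with a gradual rise. On chromosome 11 the part around the highest bin, of 36.9, spanned 200 bp. A second rise in that window reached 26.2, also over 0.5 of the highest bin, so the signal there was wider. The highest bin reached 374 times the genome mean on chromosome 16, within the span of 47559801 to 47559950, and the highest bin of any other library in the window was 3.21. These windows held 933 to 5552 inferred reads each in that library. At windows outside all peaks of any mean level, control replicate 2 had 17 that reached 3 and were at least 3 times every other library, and the other 3 libraries had 0 each. The limma fit was not repeated without the 7 windows. None of them was called in it (adjusted p of 0.239 or more), so taking them off the list could not change the 4 calls. The count at an unadjusted p under 0.05 went to 199 (5.58%), against 15.6% of all windows tested.

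**Figure D5:**
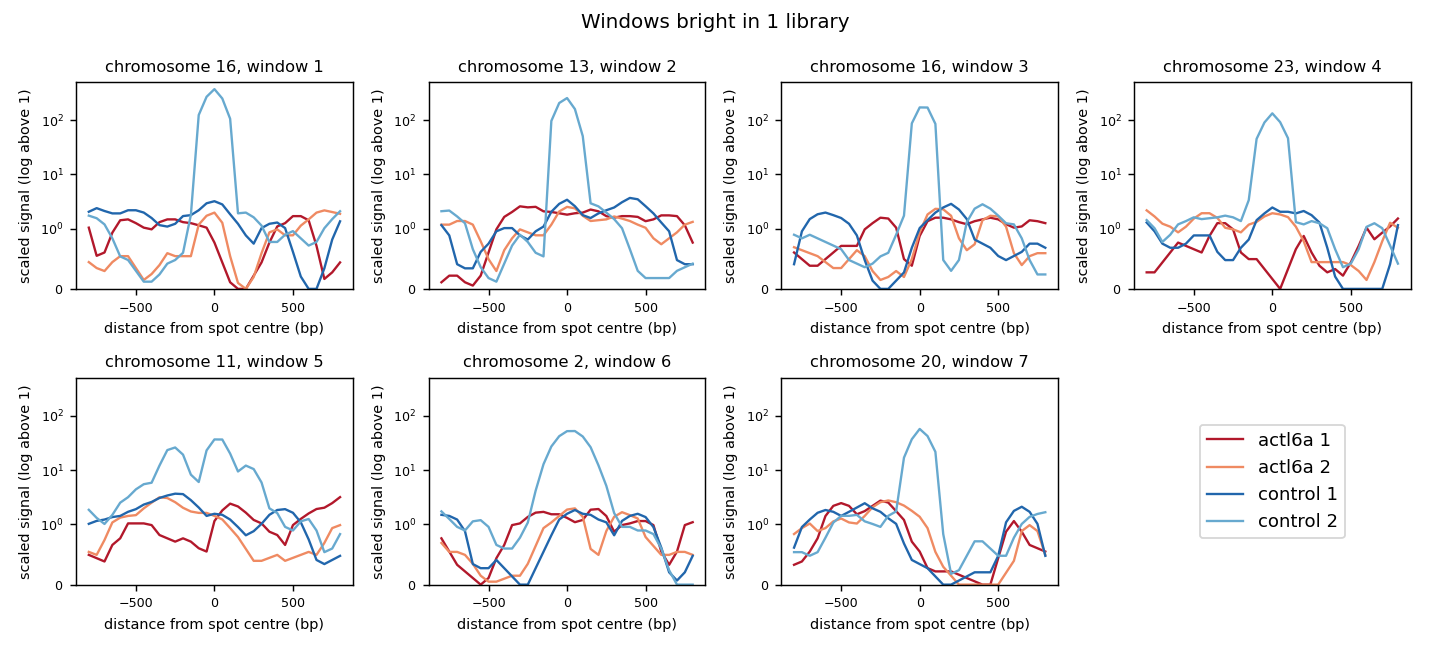
Scaled signal (log axis above 1) in bins of 50 bp against distance in bp from the centre of the spot, for the 7 members that were bright in 1 library, in each library. Control replicate 2 (light blue) rises to between 36.9 and 374 times the genome mean, and the other 3 libraries stay at 3.69 or less within these windows.

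With the tracks scaled to their genome mean, an unadjusted p under 0.05 was more frequent in brighter members. It was reached by 10 of 68 members at 100 or more (14.7%), all lower in actl6a libraries. From 30 to 100 it was reached by 36 of 309 (11.7%), of which 33 were lower. The respective median log2 changes were -0.081 and -0.070. Among the 1594 members from 3 to 5 it was reached by 65 (4.08%), of which 26 were higher and 39 lower, with a median log2 change of -0.034. All windows tested had a share of 15.6% (12.9% lower), and none of these shares exceeded 15.6%. The 14.7% at 100 or more, all lower, was above the 12.9% and rests on 10 windows. The 14 members of the stretch on chromosome 14 with an unadjusted p under 0.05 all had levels of 30 or more. By distance, 30 of 315 members within 1000 bp of a peak (9.52%) had an unadjusted p under 0.05. It was 85 of 1143 (7.44%) at 1000 to 10000 bp and 87 of 2116 (4.11%) farther away, again under the 15.6% of all windows tested. The median log2 changes by distance were -0.072, -0.037 and -0.036. Peaked and flat members had medians of -0.040 and -0.038, and single windows and runs of 10 or more had -0.054 and -0.037.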

How the data were processed

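ATAC-seq was analysed in 4 libraries, 2 per group, grouped by their labels. The authors deposited a coverage signal per 50 bp bin for each library and 1 peak list (chromosome, start, end) per group. The submitters' processing notes name Bowtie2, Trim Galore, FastQC, deepTools and MACS2 and the build GRCz11; roles, settings, the handling of duplicate and multiply mapped reads and any transposase shift are not given in the sources used here. Within each track 99.9993% of low values were whole multiples of 1 step (tolerance 0.1 of a step); depths were inferred by reading that step as 1 read in RPKM, which no source states, and such reads need not be independent molecules.

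The members and all lists and tests were chosen with earlier results of these data known. Windows were compared with limma 3.58.1 (R 4.3.3; lmFit, eBayes with trend, 2 residual degrees of freedom) on log2(scaled signal + 0.5), two-sided, which understates changes of low windows. Values per library were compared with exact permutation tests. Python 3.11.15, numpy 2.4.6 and pandas 2.3.3 did the rest. On simulated data for the 7306 windows, with a log2 change of 1 put into 200, limma called 73.8% of these. There were 8.6 false calls per draw over 5 draws, and with none changed there were 1.6. The simulated noise was normal, independent between windows and libraries, and of the same spread in windows of like level. It held no windows bright in 1 library and no shifts shared by windows, so these rates need not hold for the data. Named windows follow a fixed rule: the 5 brightest, the 5 longest runs, the 5 largest increases and decreases without overlap of groups, called windows, the 3 sharpest and the 3 flattest, and those at the threshold. Windows bright in 1 library were singled out after their values were seen. No genome or annotation of GRCz11 was used here, so sequence and genes are not reported. Alternatives covered scaling, pseudocount, windows tested, window position and size, the rule's level, distance from peaks, variance model, threshold, block and each library left out.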

Additional observations from a re-analysis of the deposited data

How the results depend on the processing

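Against 4 called members, limma called 77 with scaling on windows at peaks (2.15%, against 3.04% of all windows tested), 20 with quantile normalization (0.56% against 1.49%), 51 with cyclic loess (1.43% against 2.85%), 24 when all windows of 0.5 or more were tested (0.672% against 0.0562%) and 23 when all windows with signal were (0.644% against 0.0533%). With scaling on windows at peaks and in the last 2 settings, the lowest adjusted p of any member in limma was that of chromosome 16 at 47559001. It was 9.2e-28, 9.4e-18 and 6.5e-11, and this window was bright in control replicate 2 alone. The windows on chromosomes 23 at 23722001 and 11 at 5591001, bright in that library, were called there as well. Limma called 8 with windows starting at 500 bp (0.224% against 0.612%) and 16 with windows of 500 bp (0.193% against 0.34%). At an adjusted p under 0.1 it called 15 (0.42% against 0.972%). It called 0 without a variance trend and 0 without chromosome 4. Without a variance trend, an unadjusted p under 0.05 was reached by 157 (4.39% against 14.9%), and without chromosome 4 by 183 (5.3% against 13.6%). Leaving out 1 library gave 0 to 12, with the lone library's spread taken from the other group. A fit with a replicate block called 152 members (4.25%; 42 higher, 110 lower), including the 4, against 14.9% of all windows tested and 23.8% of windows at peaks. The labels state no pairing, and deviations of same-numbered libraries from their group means had r = 0.066 over members and 0.285 over all windows tested, so whether the numbers pair the libraries is not known. The count stayed at 4 with both other pseudocounts and the tracks as deposited. Those tracks have means of 2.46 to 2.49, so that setting acts much like a change of pseudocount. A level of 5 and 1000 bp from peaks cut the list of the same fit, at 4 and 3 calls. These 2 counts were fixed by the main fit. The median log2 change of -0.039 became 0.36, 0.076 and 0.072 with the first 3 scalings, and stayed between -0.050 and -0.034 otherwise. The difference in contrast between groups, -0.0035, ran from -0.0100 to 0.0029 without 1 library, 0.00079 without control replicate 2. Members against windows at peaks reversed in peakedness to 0.10 at a level of 5. The difference in share of signal kept its sign with the other levels, distances and windows tried. Leaving out 1 library could not have reversed it, because the groups did not overlap. In the 13 named windows the groups did not overlap, so only the scalings could have reversed the sign, and none did. Over all settings, fits with 1 library in a group among them, 147 values kept their side of the threshold, 55 passed it anew and 20 lost it. A level of 5 and 1000 bp from peaks leave the fit as it is, so values under them could only keep their side. Shifted and 500 bp windows have other bounds and were not matched to these windows. The cause of these changes was not tested. Inferred reads per member of 59.4 or more limit small changes.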
